A study of Mus musculus with 3 samples.

Results

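The proteasome is the protease complex that degrades ubiquitin-tagged proteins in the cytosol and nucleus. Its genes were taken here as every mouse symbol that begins with Psm, a letter from a to g and a number. This rule found 51 of the 24225 genes in the deposited table, counted from 58 RefSeq isoforms. Of these, 48 encode subunits, activators, regulators or assembly chaperones of the complex. The other 3 match by name alone: Psmc3ip, which acts in meiotic recombination, Psme3ip1, whose product binds an activator subunit, and Psme2b, a retrogene copy of Psme2. A further 6 symbols are annotated as pseudogenes without a transcript and have no value.

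RNA was sequenced from granulosa cells of wild-type C57BL/6 females aged postnatal day 21 to 28, and all of them had received 4 IU of eCG, the hormone that drives follicle growth. The 0 h group was collected before 5 IU of hCG, the luteinizing hormone analogue that triggers ovulation, and the 4 h and 12 h groups were collected 4 h and 12 h after it. The RNA of each time came from 3 mice and was read as 1 library, so no difference below has a replicate check and no test was possible. The values are deposited FPKM, in which fragment counts are divided by transcript length and by a scaling total for the library, summed over the isoforms of a gene. The interval in brackets after a level comes from the deposited upper bound, taken as equally wide on both sides and cut at 0. For a gene with several isoforms it was combined from theirs, as if their errors were independent. It is called the deposited interval below and describes the estimate within 1 library.

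The barrel of the proteasome, called the 20S core, stacks rings of alpha subunits, which gate the entrance, around rings of beta subunits, some of which cut proteins. The 19S cap recognises ubiquitin on its lid and base and threads unfolded protein into the barrel with a ring of ATPases. In immune cells and in cells exposed to interferon, 3 inducible beta subunits replace the constitutive cutting subunits and form the immunoproteasome, which favours peptides for presentation on MHC class I. Assembly chaperones build the rings, and activators can replace the cap. In granulosa cells the ubiquitin-proteasome system is known for turning over cell cycle regulators and signalling proteins as the follicle passes from growth to luteinization.

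The 9 measured granulosa cell markers, such as the inhibin subunit Inha, were present in each library and summed to 9895 FPKM at 0 h, 8787 at 4 h and 5351 at 12 h, most of it Inha (6986, 7163 and 3742), and none of the marker genes of the 6 other cell types examined was at 0 in any library. Steps between low FPKM values placed the scaling total between about 11600000 and 13300000 fragments per library, and whether it equals the sequencing depth was not tested. In this bulk RNA, fewer cells of a type and less RNA per cell cannot be told apart. Transcripts of other genes share sequence with some members, which can move fragments between them: 16 of the 51 genes shared at least 10% of their 50-base words with an annotated transcript of another gene. The FPKM of all genes summed to 501561 at 0 h, 621365 at 4 h and 472904 at 12 h, so scaling matters for small folds. When each library was rescaled to the mean of these sums, the median log2 fold of all genes moved by -0.28 at 4 h over 0 h and by 0.36 at 12 h over 4 h.

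Promoters are shown for the inducible subunits Psmb8 and Psmb9, which lie on chromosome 17 with the gene Tap1 between them. Those of the constitutive subunits they replace, Psmb5 and Psmb6, are shown as well. Psmb9 had the largest fold of the 47 genes below, and its pair and the pair of nearby Psmb8 set it in context. The RefSeq promoter table of build GRCm38.p6, the assembly that mm10 names, held 43 of the 51 genes. Each line is the 250 bases before the annotated start, 5′ to 3′ in the direction of the gene. Capitals mark the core of the interferon-responsive GAS element (TTCNNNGAA) in Psmb8, the CCAAT box on the opposite strand in Psmb9 and the antioxidant response element (TGACNNNGC) in Psmb5 and Psmb6.
Psmb8 promoter (chr17:34197945-34198194, plus strand): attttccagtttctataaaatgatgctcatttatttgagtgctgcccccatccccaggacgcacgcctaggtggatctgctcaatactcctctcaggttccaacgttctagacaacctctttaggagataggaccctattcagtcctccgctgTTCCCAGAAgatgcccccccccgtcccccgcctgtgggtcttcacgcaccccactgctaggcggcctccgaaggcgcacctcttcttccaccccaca
Psmb9 promoter (chr17:34187331-34187580, minus strand): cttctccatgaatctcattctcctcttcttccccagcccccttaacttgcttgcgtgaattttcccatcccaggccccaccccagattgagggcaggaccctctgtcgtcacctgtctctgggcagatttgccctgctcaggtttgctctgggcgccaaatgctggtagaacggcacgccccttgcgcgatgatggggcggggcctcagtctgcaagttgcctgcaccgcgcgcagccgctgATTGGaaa
Psmb5 promoter (chr14:54617996-54618245, minus strand): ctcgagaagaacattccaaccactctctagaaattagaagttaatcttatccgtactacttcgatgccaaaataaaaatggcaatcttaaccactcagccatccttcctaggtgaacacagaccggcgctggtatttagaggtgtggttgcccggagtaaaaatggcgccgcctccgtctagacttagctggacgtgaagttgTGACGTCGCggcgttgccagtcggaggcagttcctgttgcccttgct
Psmb6 promoter (chr11:70525107-70525356, plus strand): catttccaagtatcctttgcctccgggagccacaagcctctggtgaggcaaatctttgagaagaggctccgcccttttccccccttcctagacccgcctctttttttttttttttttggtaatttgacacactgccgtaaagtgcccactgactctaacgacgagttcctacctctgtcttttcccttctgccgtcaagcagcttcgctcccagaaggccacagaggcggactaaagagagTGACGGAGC

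The GAS core of Psmb8 lies 97 to 89 bases before its start. With both strands searched over 300 bases, from 250 before the start to 50 after it, the same letters were found in Psmb8, Psmg1 and Psmd2, or 6.98% of the 43 genes, against 9.55% of all 27025 genes of the table. The antioxidant response element lies 47 to 39 bases before the start of Psmb5 and 9 to 1 bases before that of Psmb6. These are the starts of the promoter table: the RefSeq gene range of Psmb6 begins upstream, at position 70525324 of chromosome 11, so by that start the marked bases lie inside the gene. It was present in 6 of the 43 genes, or 14%, the share also found over all genes. The core of the interferon-stimulated response element was present in 5 of the 43 (11.6%, against 3.99% of all genes), in Psmd4, Psmd9, Psmb3, Psmg4 and Psme1, and in none of Psmb8, Psmb9 and Psmb10. The CCAAT box was present in 16 (37.2%, against 41.1%), and 5 of the 7 genes of the alpha ring held it. A match describes these letters and is not a binding site. Tap1, which encodes a transporter of peptides for MHC class I, starts 226 bases from Psmb9 and runs away from it, so the printed Psmb9 sequence holds the whole interval between the starts.

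**Figure D1:**
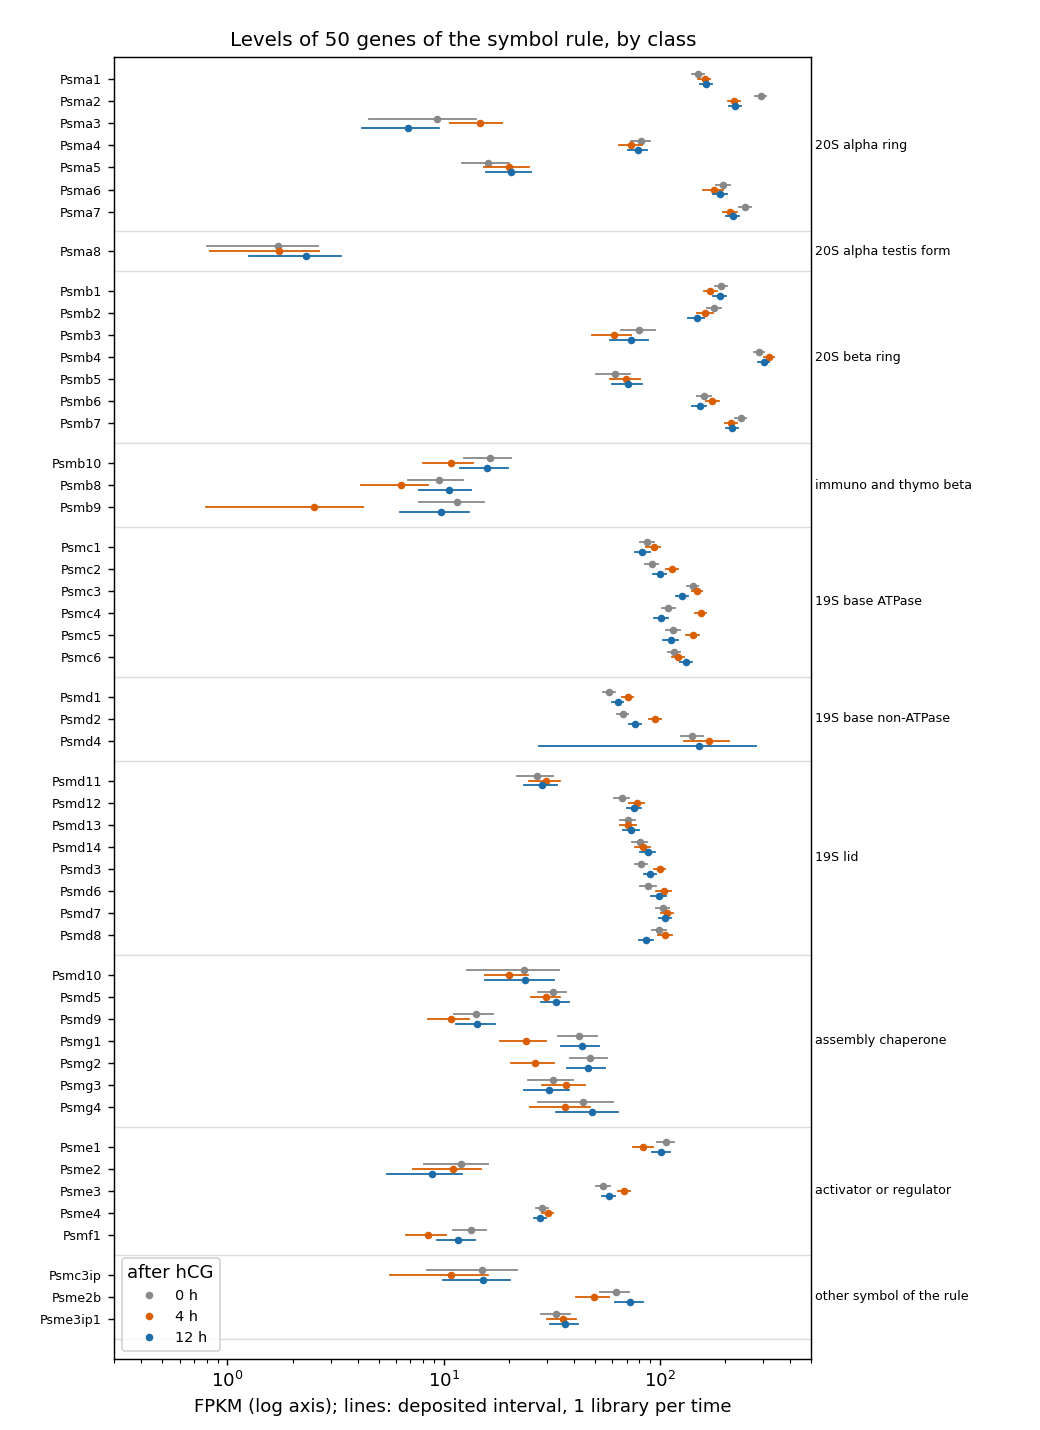
Level of 50 of the 51 genes in each library, with Psmb11 left out because it was at or near 0. The x axis is FPKM on a log scale, points are the 0, 4 and 12 h libraries, lines are deposited intervals, and genes are grouped by their place in the complex. Ring and cap subunits other than Psma3, Psma5, Psma8 and Psmd11 lie between 58.1 and 319 FPKM at each time, while the inducible subunits Psmb8, Psmb9 and Psmb10 lie at 16.4 FPKM or below.

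Few proteasome genes differed by 1.5-fold between any pair of times, and none did between 12 h and 0 h. Calls used a fold of 1.5 or 2 on the log2(FPKM + 1) scale, for genes that reached 1 FPKM in either library, and 47 of the 48 genes with a role met that floor. The other one, the thymus subunit Psmb11, was listed at 0 FPKM at 0 h and 4 h. From 0 to 4 h, 1 of 47 genes (Psma3) was higher by 1.5-fold, against 19.1% of 13240 genes, and 4 (Psmb9, Psmg1, Psmg2 and Psmf1) were lower, against 18.7%. By 2-fold, 0 were higher, against 10.2%, and 1 was lower, against 7.03%. The deposited intervals did not overlap for 9 genes in the higher direction, against 22% of all genes, and for 7 in the lower, against 17.4%.

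From 4 to 12 h, 4 of 47 were higher by 1.5-fold (Psmb8, Psmb9, Psmg1 and Psmg2), against 16.2% of 13242 genes, and 2 were lower (Psma3 and Psmc4), against 16%. By 2-fold 1 was higher, against 4.83%. Intervals were apart in the higher direction for 3, against 14.1%, and in the lower for 8, against 20.5%. From 0 to 12 h, 0 of 47 passed 1.5-fold, against 15.5% of 13026 genes, and 3 had intervals apart, against 16.9%. The interquartile range of the log2 folds from 0 to 12 h was 0.21 for the 47 genes and 0.43 for all genes. The 3 comparisons share libraries, so the return at 12 h is not independent of the departure at 4 h.

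**Figure D2:**
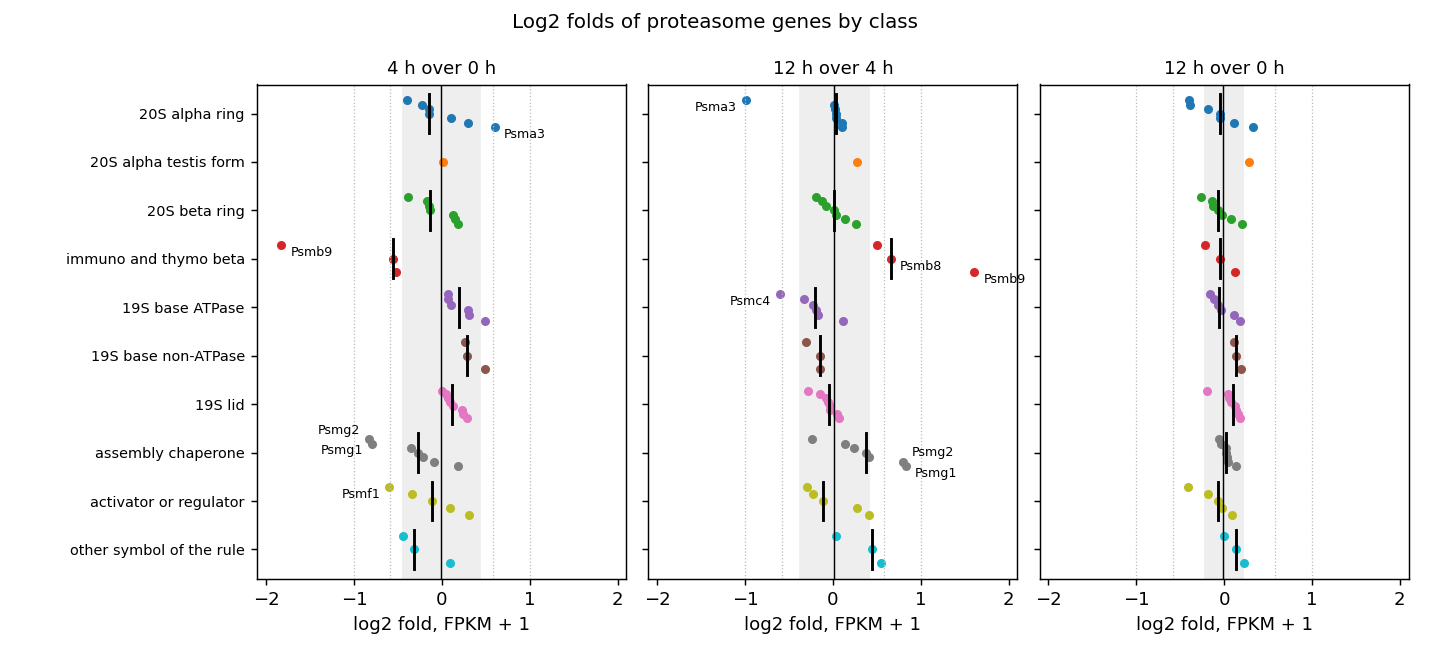
Log2 fold of each gene, on the FPKM + 1 scale, in the 3 comparisons, by class. Thick bars are class medians for classes of 3 or more genes, the thin line and grey band are the median and interquartile range of all genes, dotted lines mark 1.5-fold and 2-fold, and genes past 1.5-fold are named. At 4 h over 0 h the 19S classes lie right of the line and the inducible subunits and most chaperones left of it, and at 12 h over 0 h no gene is past 1.5-fold.

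The inducible catalytic subunits were the class furthest below the 0 h level at 4 h. Psmb9 (chr17:34182030-34187330), which replaces the caspase-like subunit Psmb6, was at 11.5 FPKM at 0 h (7.67 to 15.3), 2.51 at 4 h (0.796 to 4.23) and 9.71 at 12 h (6.28 to 13.1). The 4 h value stands apart from both others, with intervals that do not touch. The log2 fold was -1.83 at 4 h over 0 h and 1.61 at 12 h over 4 h, and about 34 fragments lay behind the 4 h value, against about 176 at 0 h. Psmb9 was the only gene of the 47 past 2-fold in either comparison. Its transcript shares 12.5% of its 50-base words with Tap1, so some fragments are of uncertain origin.

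Psmb8 (chr17:34198195-34201454), which replaces the chymotrypsin-like subunit Psmb5, was at 9.55 FPKM at 0 h (6.85 to 12.3), 6.33 at 4 h (4.16 to 8.50) and 10.5 at 12 h (7.70 to 13.4). Psmb10 (chr8:105935728-105938392), which replaces the trypsin-like subunit Psmb7, was at 16.4 FPKM at 0 h (12.4 to 20.4), 10.8 at 4 h (7.99 to 13.7) and 15.8 at 12 h (11.9 to 19.7). Both were lowest at 4 h, but their 4 h intervals overlap those of the other libraries, and their log2 folds of -0.53 and -0.55 at 4 h over 0 h stop short of 1.5-fold. That call depends on the 1 FPKM added: with 0.1 FPKM added the log2 folds were -0.59 for both, and after rescaling to the mean summed FPKM they were -0.79 and -0.84, in each case past 1.5-fold. Psmb8 was past 1.5-fold at 12 h over 4 h, with a log2 fold of 0.66.

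Of the constitutive partners, Psmb5 and Psmb6 had no such dip at 4 h on the deposited scale, and Psmb7 had a small one. Psmb6 was at 160 FPKM at 0 h (149 to 172), 175 at 4 h (163 to 187) and 152 at 12 h (141 to 164). Psmb5 was at 61.6 FPKM at 0 h (50.4 to 72.9), 69.9 at 4 h (58.6 to 81.2) and 71.4 at 12 h (60.0 to 82.8), although 57.1% of its 50-base words are shared with other annotated transcripts. Psmb7 was at 236 FPKM at 0 h (221 to 251), 214 at 4 h (200 to 227) and 215 at 12 h (201 to 229). Its log2 fold was -0.14 at 4 h over 0 h with overlapping intervals, and 28.1% of its 50-base words are shared with Nek6. After rescaling to the mean summed FPKM, the log2 folds at 4 h over 0 h were -0.13 for Psmb5, -0.18 for Psmb6 and -0.45 for Psmb7. Within each pair, Psmb9 made up 6.69% of the summed FPKM at 0 h, 1.42% at 4 h and 5.99% at 12 h. Psmb8 made up 13.4%, 8.30% and 12.9% of its pair at 0, 4 and 12 h, and Psmb10 6.49%, 4.83% and 6.84%. A share within a library does not depend on how the library is scaled.

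**Figure D3:**
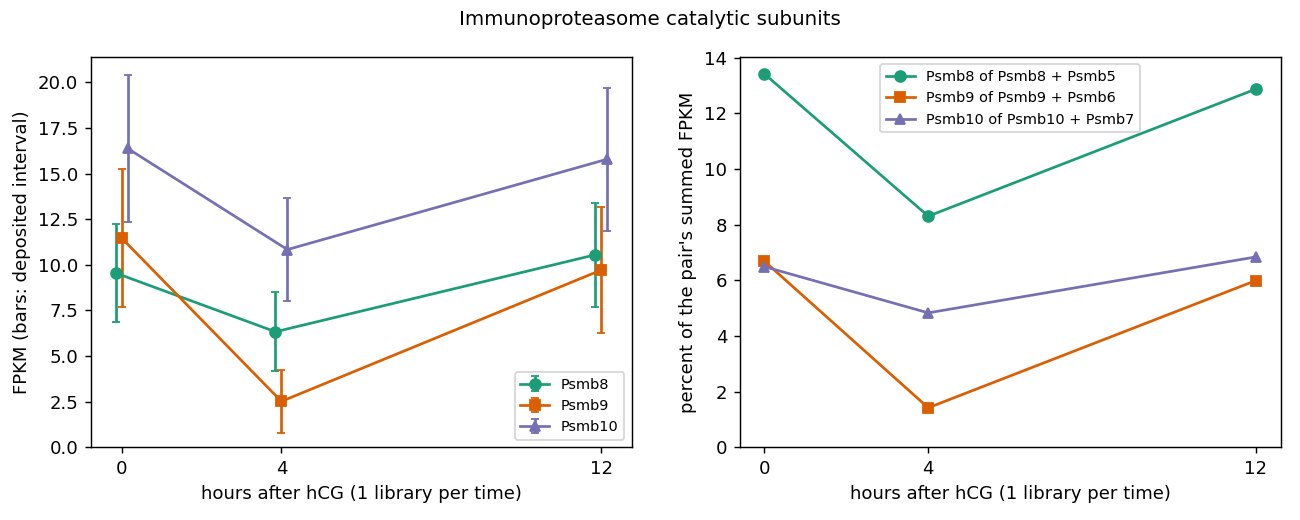
Left, FPKM of Psmb8, Psmb9 and Psmb10 against hours after hCG, with deposited intervals as bars and 1 library per time. Right, each as a percent of the summed FPKM of itself and the constitutive subunit it replaces. Each line is lowest at 4 h, and Psmb9 has the deepest dip, to 1.42% of its pair.

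Genes of antigen presentation and interferon signalling, which are often induced together with the immunoproteasome, held calls in both directions at 4 h. Of 13 measured, 2 were higher and 2 lower by 1.5-fold at 4 h over 0 h, against 19.1% and 18.7% of all genes, with a median log2 fold of -0.02. Tap1 had 5.58 FPKM at 4 h (4.20 to 6.97), against 11.2 at 0 h (1.70 to 20.7), and these intervals overlap. The MHC class I heavy chain H2-K1 went the other way, with 204 FPKM at 4 h (194 to 214) against 123 at 0 h (115 to 130). Its light chain B2m likewise had 457 FPKM at 4 h (434 to 481) against 287 at 0 h (269 to 305). Irf1, an interferon-regulated transcription factor, had 13.6 FPKM at 4 h against 16.3 at 0 h, with overlapping intervals.

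Markers of other cells, leukocytes among them, which are rich in immunoproteasomes, also differed between the libraries. The 10 leukocyte markers summed to 83.6 FPKM at 0 h, 138 at 4 h and 136 at 12 h. Of the 9 that reached 1 FPKM, 8 had a positive log2 fold at 4 h over 0 h, against 49.5% of all genes. Itgam, among the 8, met the floor through the 4 h library alone (1.01 FPKM, against 0.451 at 0 h), so its sign followed from the floor. Intervals were apart in the higher direction for 3 of the 9, against 22% of all genes. Csf1r, the 1 gene of the 9 with a negative log2 fold, had 2.46 FPKM at 4 h against 2.67 at 0 h. The 7 endothelial markers summed to 17.7 FPKM at 0 h, 45.3 at 4 h and 18.3 at 12 h. Oocyte markers did have their lowest sum at 4 h. The 8 genes summed to 209 FPKM at 0 h, 162 at 4 h and 292 at 12 h. All 8 had a negative log2 fold at 4 h over 0 h, while 49.5% of all genes had one above 0. The 4 erythroid markers summed to 540 FPKM at 0 h, 445 at 4 h and 376 at 12 h, and they differed. Hba-a1 was lowest at 4 h, at 457, 282 and 355 FPKM at 0, 4 and 12 h. Hbb-bs was highest at 4 h, at 57.2, 149 and 11.3 FPKM. Of the 9 granulosa cell markers, 6 were lowest at 4 h, against 41.3% of all genes. By 2-fold, 4 of the 9 were lower at 4 h over 0 h, all among those 6, against 7.03% of all genes. Fshr, the receptor of follicle-stimulating hormone, was among these, with 15.5 FPKM at 4 h against 133 at 0 h. The part of granulosa cell state and of other cells in the levels of Psmb8, Psmb9 and Psmb10 was not tested.

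The 19S cap genes leaned 1 way at 4 h. All 17 had a log2 fold above 0 at 4 h over 0 h, against 49.5% of all genes, with a median of 0.23 and a highest fold of 0.49, and none passed 1.5-fold. The 4 h library held the highest value for 14 of the 17, against 40.3% of all genes. Intervals were apart in the higher direction for 8 of the 17, against 22% of all genes. After rescaling to the mean summed FPKM, 3 of 17 had a log2 fold above 0, against 4187 of 13163 genes. Of the 17, 16 lay above the median of all genes, so the direction holds relative to other genes and not on each scale. Leaving out genes that share sequence, 13 of 13 were above 0 on the deposited scale.

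Among the ATPases of the base, which unfold the substrate, Psmc4 (chr7:28041702-28050092) was at 109 FPKM at 0 h (102 to 117), 154 at 4 h (145 to 163) and 101 at 12 h (93.5 to 108). It stood highest at 4 h, with an interval apart from both other times and log2 folds of 0.49 at 4 h over 0 h and -0.60 at 12 h over 4 h. Psmc2 was at 91.6 FPKM at 0 h, 114 at 4 h and 99.6 at 12 h, and Psmc5 at 115, 141 and 112, both with 4 h intervals above those of 0 h and 12 h. Psmc1, Psmc3 and Psmc6 were within 0.10 log2 of their 0 h level at 4 h. Of the scaffold subunits, Psmd2 (chr16:20651122-20663414) was at 67.2 FPKM at 0 h (62.9 to 71.4), 95 at 4 h (89.1 to 101) and 76.8 at 12 h (72.0 to 81.6), although 25.2% of its words are shared with other annotated transcripts. Psmd1 was at 58.1 FPKM at 0 h, 70.9 at 4 h and 63.8 at 12 h.

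In the lid, which holds the enzyme that removes ubiquitin, folds were smaller. Its 8 genes had a median log2 fold of 0.11 at 4 h over 0 h, and Psmd3, Psmd6 and Psmd12 had intervals above those of 0 h. Psmd3 was at 82.0 FPKM at 0 h, 99.8 at 4 h and 89.8 at 12 h. Psmd14, the deubiquitinase, was at 80.5, 83.5 and 87.7 FPKM at 0, 4 and 12 h, with overlapping intervals. Psmd11 was the lowest of the cap genes at each time, at 26.9 to 29.6 FPKM, and the other lid genes lay between 66.6 and 108 FPKM. At 12 h over 0 h the median of the 17 cap genes was 0.11, and Psmd2 alone had intervals apart.

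The constitutive 20S genes were split, as all genes were. Of 14, 6 had a log2 fold above 0 at 4 h over 0 h, close to the 49.5% of all genes. The other 8 lay below 0, and the median was -0.14. After rescaling to the mean summed FPKM 2 of the 14 were above 0, against 4187 of 13163 genes, and 0 of them were in the beta ring. On that scale 6 of the 14 lay above the median of all genes. The difference between the medians of the cap and the core was 0.37 on the deposited scale at 4 h over 0 h, and also 0.37 after rescaling to the mean summed FPKM. The highest core genes were Psmb4 at 287, 319 and 302 FPKM at 0, 4 and 12 h, and Psma2 at 292, 221 and 222. Psma2 was lower at 4 h (207 to 235) and at 12 h (208 to 236) than at 0 h (276 to 309), with a log2 fold of -0.40 in both comparisons with 0 h. Psma7 had a smaller step in the same direction, at 211 FPKM at 4 h (196 to 227) and 248 at 0 h (232 to 263). Psmb2 was at 178 FPKM at 0 h, 162 at 4 h and 148 at 12 h, and its 12 h interval (135 to 160) lay below that of 0 h (164 to 192).

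The members of each ring occur in equal copies in the complex, but their FPKM were unequal. At 0 h the alpha ring genes ran between 9.29 and 292 FPKM and the beta ring genes between 61.6 and 287. The lowest alpha genes were Psma3 and Psma5, which share 22% and 55.4% of their 50-base words with other annotated transcripts, mostly processed pseudogenes. Psma3 was at 9.29 FPKM at 0 h (4.51 to 14.1), 14.7 at 4 h (10.7 to 18.6) and 6.86 at 12 h (4.19 to 9.53), and it was the gene counted as higher by 1.5-fold at 4 h, although the 4 h and 0 h intervals overlap. Psma8, the testis form of an alpha subunit, was at 1.71 FPKM at 0 h, 1.73 at 4 h and 2.31 at 12 h, close to the floor used here.

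Of the assembly chaperones, Psmg1 and Psmg2 were lower by 1.5-fold at 4 h and near their 0 h level at 12 h, and the other 5 stayed within 1.5-fold with overlapping intervals. Of the 7, 6 had a negative log2 fold at 4 h over 0 h, with a median of -0.27, and these 6 had their lowest value at 4 h, against 41.3% of all genes. The summed oocyte markers were also lowest at 4 h, and their part in this was not tested. At 12 h over 0 h all 7 lay between -0.05 and 0.14. Psmg1 and Psmg2 form the dimer that starts the alpha ring. Psmg1 (chr16:95979933-95990960) was at 42.4 FPKM at 0 h (33.7 to 51.1), 24.0 at 4 h (18.3 to 29.8) and 43.5 at 12 h (34.7 to 52.4). Psmg2 was at 47.5 FPKM at 0 h (38.2 to 56.8), 26.4 at 4 h (20.4 to 32.4) and 46.4 at 12 h (37.3 to 55.5). Both 4 h intervals lie below those of the other libraries, and the log2 folds at 4 h over 0 h were -0.79 and -0.82. The second chaperone pair differed: Psmg3 was at 32.0, 36.6 and 30.8 FPKM at 0, 4 and 12 h and Psmg4 at 43.8, 36.2 and 48.4, with overlapping intervals. Among the base chaperones, Psmd5 had 29.8 FPKM at 4 h against 31.9 at 0 h and Psmd9 had 10.8 against 14.1, again with overlapping intervals. Psmd10, the third of them, had a log2 fold of -0.22 with overlapping intervals, and of -0.01 with its main isoform only.

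The activators went separate ways. Psme3, which forms the nuclear activator, was at 54.7 FPKM at 0 h (50.8 to 58.6), 68.1 at 4 h (63.7 to 72.5) and 58.1 at 12 h (54.0 to 62.1). Psme1, a subunit of the interferon-inducible activator, was at 107 FPKM at 0 h (96.8 to 117), 83.8 at 4 h (75.2 to 92.4) and 101 at 12 h (91.8 to 111). Of its 50-base words, 14.1% are shared with other annotated transcripts. Psme3 was thus highest and Psme1 lowest at 4 h, in each case with an interval apart from that of 0 h. Psme2, the partner of Psme1, could not be read alone: it was at 12, 11 and 8.83 FPKM at 0, 4 and 12 h while its retrogene copy Psme2b, with 69.3% of its words shared, was at 62.3, 49.6 and 72.8. Summed, the 2 genes were at 74.3, 60.6 and 81.6 FPKM. The regulator Psmf1, which binds the 20S core, was at 13.3 FPKM at 0 h (11 to 15.7), 8.46 at 4 h (6.66 to 10.3) and 11.6 at 12 h (9.32 to 13.9), and its log2 fold of -0.60 at 4 h over 0 h passed 1.5-fold. Psme4 was at 28.4, 30.3 and 27.9 FPKM.

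Genes that work with the proteasome without the Psm name leaned higher at 4 h. Of 28 measured, 6 were higher by 1.5-fold at 4 h over 0 h and 1 was lower, against 19.1% and 18.7% of all genes, so the higher share is close to that of all genes. Their median log2 fold was 0.30, and intervals were apart in the higher direction for 11, against 22% of all genes. From 4 to 12 h, 7 of the 28 were lower by 1.5-fold, against 16% of all genes. From 0 to 12 h 0 of 28 passed 1.5-fold, against 15.5% of all genes. After rescaling to the mean summed FPKM the median of the 28 at 4 h over 0 h was -0.00, against -0.29 for all genes. On that scale 19 of the 28 lay above the median of all genes.

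Zfand5, a ubiquitin-binding protein that stimulates the proteasome, was at 18.6 FPKM at 0 h (17.2 to 19.9), 91.5 at 4 h (88.5 to 94.4) and 20.1 at 12 h (18.7 to 21.5), a log2 fold of 2.24 at 4 h over 0 h. The antioxidant transcription factor Nfe2l2 was at 51.9 FPKM at 0 h (47.9 to 55.8), 136 at 4 h (129 to 142) and 75 at 12 h (70.2 to 79.7). Only these 2 of the 28 were higher by 2-fold at 4 h over 0 h, against 10.2% of all genes, and 0 were lower, against 7.03%. Nfe2l1, the related factor that drives proteasome genes when proteasome activity is short, had 142 FPKM at 4 h (134 to 151) against 168 at 0 h (154 to 183). Ngly1, an enzyme needed to activate it, had 8.24 FPKM at 4 h against 13 at 0 h, with overlapping intervals. Uba6, an enzyme that activates ubiquitin, had 11.5 FPKM at 4 h (9.76 to 13.2) against 5.87 at 0 h (4.62 to 7.11), and the ligase Ube3a had 27.4 (24.2 to 30.6) against 15.2 (13.7 to 16.7). Akirin2, which brings proteasomes into the nucleus, had 91.6 FPKM at 4 h (85 to 98.2) against 59.8 at 0 h (54.5 to 65). Akirin2 and Ngly1 were named after their values were seen. Pomp, the chaperone of the beta ring, had 214 FPKM at 4 h (197 to 230) against 157 at 0 h (143 to 171), so it was higher while Psmg1 and Psmg2 were lower. The ubiquitin receptor Adrm1 had 12.1 FPKM at 4 h against 7.45 at 0 h with overlapping intervals, and 78% of its words are shared with another annotated gene.

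**Figure D4:**
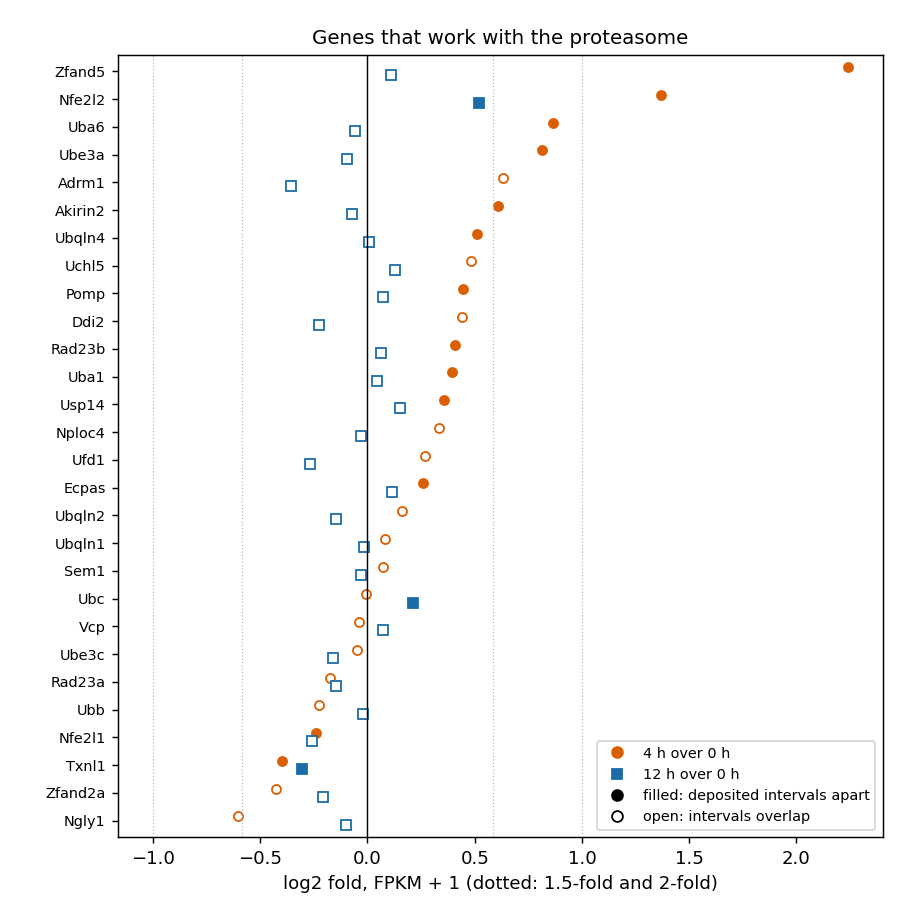
Log2 fold, on the FPKM + 1 scale, of 28 genes that work with the proteasome, at 4 h over 0 h (circles) and 12 h over 0 h (squares). Filled symbols have deposited intervals that do not overlap, and dotted lines mark 1.5-fold and 2-fold. Zfand5 at 2.24 and Nfe2l2 at 1.37 are the 2 genes past 2-fold at 4 h, where 10.2% of all genes are higher by 2-fold. No square is past 1.5-fold, against 15.5% of all genes.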

How the data were processed

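Granulosa cell RNA was sequenced as 1 library at each of 0, 4 and 12 h, with RNA of 3 mice per time per the labels' protocols; pooling, strand and read length are not given in the sources used here. The deposited file gives FPKM of RefSeq isoforms with bounds of unstated level. CASAVA 1.8, TopHat2 2.1.1, Cufflinks 2.2.1 and mm10 are named in the submitters' processing notes. The spread column, of other unit, was deposited by the authors and not used.

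Of 34535 isoforms, 34169 were placed by RefSeq accession, 193 through GENCODE and 173 not at all. Isoform FPKM were summed per gene and half-widths combined as root sums of squares; no member had a failed estimate. Folds are log2 ratios of later to earlier FPKM after adding 1 to each. No p-value was computed. All members are named or counted; related lists are named by a rule of up to 4 genes of largest fold per comparison plus 6 fixed genes, and not every gene it allows is reported here. The scaling total came from whole-fragment steps. Of low values at 0, 4 and 12 h, 70.7%, 70.2% and 71.8% lay within 0.1 of a whole number, where chance gives 20%. Shared sequence was the share of 50-base words, on either strand, found in GENCODE transcripts of other genes. Calls were tested on simulated data (Python 3.11.15, pandas 2.3.3). Members, lists and alternatives were chosen with earlier results of these data known, and the sequence-sharing alternative was added after seeing the data. Protein sequences were not used here.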

Additional observations from a re-analysis of the deposited data

How the results depend on the processing

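Counts over the 47 genes with a role were small, so single genes moved them. Below, a share of all genes stands beside the counts on rescaled libraries, and none was computed for the other settings named. After rescaling to the mean summed FPKM, 0 genes were higher by 1.5-fold at 4 h over 0 h, 10 were lower (against 31.2% of all genes) and 3 were lower by 2-fold (against 13.1%), with a median log2 fold of -0.24; at 12 h over 4 h, 11 were higher by 1.5-fold (against 34.2%), 4 by 2-fold (against 12.6%) and 1 was lower by 1.5-fold (against 8.93%), with a median of 0.40. With a pseudocount of 5 FPKM, 0 were higher by 1.5-fold at 4 h over 0 h, and at 12 h over 4 h 0 were higher by 2-fold and 1 was lower by 1.5-fold. With a pseudocount of 0.1 FPKM, 6 were lower by 1.5-fold at 4 h over 0 h, since Psmb8 and Psmb10 passed it, and 1 was lower by 2-fold at 12 h over 4 h. With median-of-ratios scaling, 1 was lower by 1.5-fold at 12 h over 4 h, against 15% of all genes. Requiring intervals apart left 0 higher by 1.5-fold at 4 h over 0 h. Without genes that share sequence, 0 were higher by 1.5-fold and 0 lower by 2-fold at 4 h over 0 h, and at 12 h over 4 h 0 were higher by 2-fold and 1 was lower by 1.5-fold. With the main isoform only, Psmd4 was the 1 gene lower by 2-fold at 12 h over 4 h, and the 1 lower by 1.5-fold and by 2-fold at 12 h over 0 h. Psmb9 had a log2 fold between -2.15 and -1.13 at 4 h over 0 h over these settings, Psmg1 between -1.09 and -0.71 and Psmg2 between -1.12 and -0.74. Shares within the 3 subunit pairs did not depend on the isoform choice, since each gene has 1 isoform. No paired analysis was possible because each time has 1 library. Differences under 1.5-fold, which include most of the cap genes, rest on 1 library per time, and deposited intervals cover only the estimate within it. The cause of these moves was not tested.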

Other observations

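Of the members with several isoforms, Psmd4 and Psmg4 had the largest differences in isoform use between 12 h and 0 h. Psmd4 encodes a ubiquitin receptor of the base. Its NM_001282017 isoform held 33.6% of the gene's FPKM at 0 h, 36.5% at 4 h and 71.7% at 12 h, a difference of 38.1 percentage points between 12 h and 0 h. The 12 h estimates were wide: NM_001282017 was at 109 FPKM (21.2 to 197) and NM_008951 at 43.1 (0 to 131), intervals that overlap each other and their own at 0 h. For Psmg4, NM_001110515 held 10.2% at 0 h, 18.3% at 4 h and 38.0% at 12 h, again with overlapping intervals at 12 h (7.46 to 29.4 FPKM) and 0 h (0 to 15.1). A change of at least 25 percentage points between 12 h and 0 h was seen in 20.5% of 2161 genes with several isoforms and at least 10 FPKM at both of those times.

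The genes that match the rule by name alone were within 1.5-fold at each step. Psmc3ip was at 15.1, 10.8 and 15.1 FPKM at 0, 4 and 12 h, and Psme3ip1 at 33.1, 35.5 and 36.4. Psme2b was the only one of the 3 with intervals apart, at 12 h over 4 h.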
